A study of Mus musculus with 8 samples.

Results

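Megakaryocyte-erythroid progenitors (MEPs) were the 532 cells that the deposited annotation from RNA calls MEP, of 22602 annotated bone marrow cells in 21 RNA classes. The antibody panel covered 35 surface proteins, and its values were not part of the RNA annotation. Each antibody carried a DNA barcode, the antibody-derived tag (ADT), and counting tags gives a relative measure of how much antibody a cell bound. The cells came from FlkSwitch mice on a C57Bl/6 background, young (2 to 3 months) or old (20 to 24 months). In this reporter, Cre driven by Flk2 (Flt3, a receptor of multipotent progenitors) switches a cell and its progeny from Tomato to GFP. Live, lineage-negative c-Kit+ cells were sorted as CD150- or CD150+ fractions and run as 8 libraries, after each sorted population had been divided into aliquots with a multiplexing tag of their own.

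MEPs give rise to the platelet lineage through megakaryocyte progenitors (MkPs) and to red cells through erythroid progenitors. On the way to platelets, cells gain the integrin chains CD41 and CD61 and the tetraspanin CD9. On the way to red cells they gain CD105 (endoglin, a TGF-β co-receptor) before TER-119 appears. CD150 (SLAMF1) and CD48 (SLAMF2) are SLAM receptors that separate stem cells, MkPs and other progenitors, and CD117 is the receptor c-Kit.

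Each cell belongs to 1 of 16 named groups, formed by 4 letters (A to D) with 4 numbers each, and no library title uses such names. Numbers 1 and 2 hold young cells and numbers 3 and 4 old cells in every letter. The link of letters to animals, pools of animals or libraries is not given in the sources used here, so the series counts as 1 sample and no test was run. Differences were therefore taken within a letter, and for classes also within an age, and are given as the mean ± SD over letters, which describes spread alone. A protein was called different where all letters used pointed in the same direction and the mean difference was at least 0.1. Between letters, 52 cell barcodes were shared. Of the MEPs, 4 carried such a barcode, and no barcode was shared between MEPs.

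Letters A, B, C and D held 149, 168, 76 and 139 MEPs. Young mice gave 308 MEPs, 2.48% of young annotated cells (exact 95% interval 2.22 to 2.77). Old mice gave 224, or 2.20% (1.92 to 2.50), so the intervals overlapped. The share was lower in old cells in letters A, C and D, and higher in B. It ran from 1.54% in old cells of letter C to 3.05% in young cells of letter D. Cell groups with the numbers 2 and 4 held 445 of the MEPs. Intervals on shares of cells cover counting error only, and the sort fractions set part of every share.

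The median MEP had 942.5 ADT counts and 22970.5 RNA UMIs. ADT medians were 1170 in MkPs, 679 in the class CMP/other and 1091 in Early Ery progenitor A. Young and old MEPs were close in depth, with medians of 920.5 and 950 ADT counts. For the normalized score, a protein's count is divided by the cell's geometric mean over the panel, and the natural log of 1 + x is then taken 2 times in a row. It is not a log2 scale, so differences of scores are given and no folds. Antibodies differ in affinity, so scores were compared between cells and not between proteins.

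Tags of CD117, CD48, CD9 and CD150 were found in all or nearly all MEPs, and those of CD41 in fewer. All 532 MEPs had CD117 tags, with a median of 241 counts and a mean score of 1.54. CD9 and CD48 were also detected in every MEP, with median counts of 25 and 128 and mean scores of 0.967 and 1.40. CD150 was at 0 counts in 8 MEPs and had a median of 13 counts. CD41 was at 0 in 116 MEPs (21.8%), and its median was 3 counts. Thus tags of 4 of the 5 marker proteins given for the class were detected in nearly all of its cells, whereas those of CD41 were not. This does not set MEPs apart, and c-Kit (CD117) was a condition of the sort. CD150 was at 0 in 3.80% of CMP/other and 3.52% of Early Ery progenitor A. CD117, CD48 and CD9 were at 0 in fewer cells of these classes. Among all 21 classes, the mean score of MEPs ranked 4 for CD150 and 5 for CD117, CD9 and CD41, counted from the highest. For CD48 the rank was 17, so most classes carried more of it.

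The sort removed cells with mature lineage proteins, and MEPs had few tags of most of the 8 on the panel. CD11b was at 0 in 75.9% of MEPs, CD3 in 64.5%, CD8a in 58.6%, CD4 in 57.1% and TER-119, the marker of late erythroid cells, in 50.9%. CD5 and B220, of T and B cells, were at 0 in 26.1% and 18.6%, with median counts of 1 and 2. Gr1, of granulocytes, went the other way, with tags in every MEP, a median of 15 counts and a mean score of 0.795. No background level was measured for any antibody. CD135, which is Flk2 itself, was at 0 in 58.6%. CD44, the hyaluronan receptor, CD117 and CD48 took most of the tags. Their shares of all MEP tags were 31.7%, 23.4% and 16.9%, with 1 cell left out. That cell, a young Egfp- MEP of letter A, had 50788 CD48 counts among 52021 tags, against 1495 in the next highest MEP. With it, the CD48 share would read 23.5%. The number of proteins called was the same without this cell in each comparison of classes and of ages.

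Over the 8 sets of a letter and an age, some proteins hardly varied in MEPs and others did. The mean CD117 score ran from 1.52 to 1.58 and that of CD54 (ICAM-1, an adhesion molecule) from 0.865 to 0.926. The widest range was that of I-A/I-E (MHC class II, which presents antigen), from 0.488 to 1.03. CD62L (L-selectin, a homing receptor) came next with 0.399 to 0.805. F4/80, a macrophage protein, followed with 0.259 to 0.530, then CD38, CD61 and CD86 with 0.564 to 0.833, 0.363 to 0.619 and 0.348 to 0.594.

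Against MkPs, MEPs carried much less CD41, CD9 and CD61, the proteins of the platelet surface, and more CD48. CD62L was also higher, for the most part in old cells. CD41, the alpha chain of the fibrinogen receptor, had mean scores in MEPs of 0.361 (A), 0.323 (B), 0.297 (C) and 0.292 (D). In MkPs it was 0.723 (A), 0.756 (B), 0.836 (C) and 0.762 (D). No letter and age set of MEPs reached any set of MkPs, the ranges being 0.247 to 0.444 and 0.586 to 0.860. The difference was -0.451 ± 0.0735 (SD over 4 letters), and 7 of 532 MEPs lay above the median MkP.

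CD61, the beta chain that pairs with CD41, differed by -0.372 ± 0.0697 between MEPs and MkPs, and CD9 by -0.401 ± 0.0516. For CD9 the MEP means ran from 0.928 to 1.07 and the MkP means from 1.28 to 1.50, so the sets did not overlap. For CD61 they did not overlap either, at 0.363 to 0.619 and 0.635 to 1.02, but by a narrow margin. CD38, an ectoenzyme of stem cells and early progenitors, was lower to a smaller degree, at -0.120 ± 0.0413, and fell under the size called after thinning to 300 tags (-0.0885) or without blocks (-0.0793). CD150, carried by MkPs and early erythroid progenitors alike, differed by -0.0500 ± 0.0277, lower in all letters but under the size called. This value averages over ages that differed. With letters pooled, the mean was 0.725 in young MEPs and 0.699 in young MkPs, against 0.706 and 0.790 in old cells.

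CD48 was higher in MEPs than in MkPs by 0.179 ± 0.0490, with letter values of 0.158 (A), 0.161 (B), 0.252 (C) and 0.145 (D). Its set means overlapped, 1.25 to 1.46 in MEPs and 1.01 to 1.40 in MkPs. The median of young and old MkPs pooled (1.24) was exceeded by 98.7% of young MEPs and 77.7% of old MEPs. These shares are not matched for age, since 866 MkPs were old and 400 young. Within an age, the median score was 1.44 in MEPs and 1.38 in MkPs of young mice, and 1.36 and 1.12 in old mice. CD62L was higher by 0.118 ± 0.0265, just under the size called without blocks (0.0963) or without the deepest cells (0.0997). Most of this came from old cells. With letters pooled, the mean was 0.620 in old MEPs and 0.443 in old MkPs, against 0.494 and 0.468 in young cells. Higher in every letter, but not called, were CD27 (a TNF receptor family member of stem and lymphoid cells) at 0.0877 ± 0.0446, or 0.101 without letter A, and CD117 at 0.0862 ± 0.0149. In all, 2 of 35 proteins (5.71%) were called higher and 4 (11.4%) lower. Of the megakaryocyte and platelet list of 6 proteins, 3 were lower and none higher, with a median difference of -0.211 against 0.00464 over all 35. None of the 5 erythroid and pre-erythroid proteins was called, with a median of 0.00381. None of the 8 myeloid proteins was called either, with differences from -0.0155 to 0.0284.

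**Figure D1:**
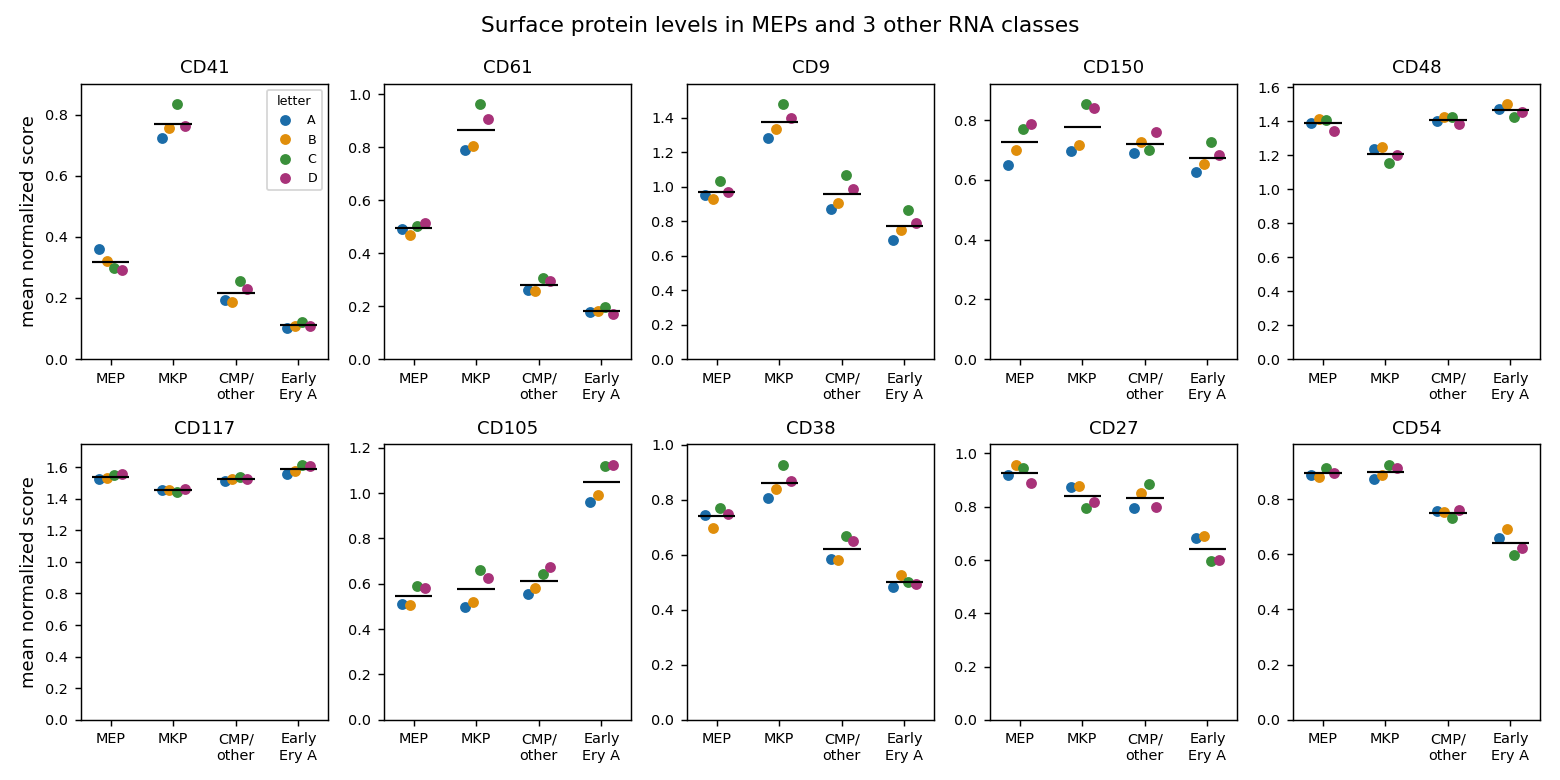
Mean normalized score (y axis, no unit, from 0) of 10 proteins in MEPs, MkPs (MKP), CMP/other and Early Ery progenitor A (x axis). Each point is a letter, averaged over young and old cells, and the line is the mean over 4 letters. CD41 and CD61 of MEPs lie between those of MkPs and of the other classes, and CD105 is high in Early Ery progenitor A alone among these 4 classes.

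Against CMP/other, 5 proteins were higher in MEPs and none was lower. CMP stands for common myeloid progenitor, and the label does not say what the other cells are. CD61 was higher by 0.215 ± 0.0138, with 0.491 (A), 0.467 (B), 0.504 (C) and 0.513 (D) in MEPs and 0.259 (A), 0.258 (B), 0.305 (C) and 0.296 (D) in CMP/other. All 4 MEP letters were above all 4 letters of CMP/other, and 77.4% of MEPs exceeded the median cell of that class. CD54 followed with 0.143 ± 0.0255, then CD38 with 0.120 ± 0.0281, CD86 (a costimulatory ligand) with 0.117 ± 0.0304 and CD41 with 0.102 ± 0.0596. CD41 was the least even of these, from 0.0417 in C to 0.169 in A, and it was under 0.1 without letter A (0.0802) or without B (0.0915). CD27 was higher in MEPs in all letters by 0.0957 ± 0.0284, and by 0.108 without C.

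For CD48, CD150, CD9 and CD117 no difference from CMP/other was called, the values being -0.0207 ± 0.0147, 0.00788 ± 0.0491, 0.0133 ± 0.0524 and 0.0153 ± 0.0104. CD105 (-0.0662 ± 0.0209) and CD79b (a chain of the B cell receptor, -0.0700 ± 0.0278) were below CMP/other in all 4 letters, under the size called. The call rule gave 5 of 35 proteins (14.3%) higher and none (0%) lower. MEPs had more tags per cell than CMP/other, and with every cell thinned to 300 tags only CD61 (0.154) and CD54 (0.103) stayed at 0.1 or more among those 5. CD38 then differed by 0.0816, CD86 by 0.0775 and CD41 by 0.0725.

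Against Early Ery progenitor A, MEPs had much less CD105 and more of the megakaryocyte proteins CD61, CD41 and CD9. CD105 scored 0.512 (A), 0.506 (B), 0.590 (C) and 0.580 (D) in MEPs and 0.960 (A), 0.992 (B), 1.12 (C) and 1.12 (D) in Early Ery progenitor A. The difference of -0.502 ± 0.0435 was the largest of any protein in the 5 comparisons, and 2.44% of MEPs exceeded the median erythroid progenitor. CD79b differed by -0.30 ± 0.0375 and CD44 by -0.112 ± 0.0255. CD44 was under the size called after thinning (-0.0948) and with the cell group as block (-0.0884). CD79b is known from B cells, yet of the 21 classes Ery B scored highest on this antibody.

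Higher in MEPs than in Early Ery progenitor A were CD61 by 0.313 ± 0.0233, CD27 by 0.285 ± 0.0469, CD54 by 0.252 ± 0.0546 and CD38 by 0.240 ± 0.0448. CD41 followed with 0.208 ± 0.0368, CD9 with 0.20 ± 0.0426, CD86 with 0.171 ± 0.0400 and I-A/I-E with 0.134 ± 0.0206. CD41 in MEPs ran from 0.247 to 0.444 over the 8 sets and in Early Ery progenitor A from 0.0886 to 0.139, with no overlap. CD27 was above the median erythroid progenitor in 88.9% of MEPs. The differences in CD150 (0.0553 ± 0.0344), CD117 (-0.0498 ± 0.0136) and CD48 (-0.0751 ± 0.0396) had the same direction in every letter and were not called. Their directions depended on the processing. CD150 differed by -0.0212 with the cell group as block. As log2 of counts per 1000 plus 1, CD117 differed by 0.111 and CD48 by 0.0207. On that scale CD150 differed by 0.624, over the 0.5 required there. Of 35 proteins, 8 (22.9%) were higher and 3 (8.57%) lower. In the megakaryocyte and platelet list 3 of 6 were higher, and in the erythroid and pre-erythroid list 2 of 5 were lower, CD105 and CD44.

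Set in order, MkPs carried the most CD41 and CD61, then MEPs, then CMP/other, then Early Ery progenitor A. The step from MEPs to CMP/other in CD41 was under 2 times its SD over letters (0.102 ± 0.0596), while the other steps next to MEPs were over 5 times theirs. The step from CMP/other to Early Ery progenitor A was not examined. For CD105, MEPs, MkPs and CMP/other lay within 0.1 of each other, and only Early Ery progenitor A stood apart from MEPs. CD34, CD16/32, Sca-1 and CD135, used in flow cytometry to divide stem cells and myeloid progenitors, were called in none of the 3 comparisons of scores. CD34 was at most 0.0936 higher in MEPs than in any of the 3 classes (against Early Ery progenitor A, 0.103 without letter A and 0.109 without B), CD16/32 (the Fc receptors) at most 0.0829 and Sca-1 at most 0.0758. CD135 differed by at most 0.0124 in size from any of them. These results depended on the scale. As log2 of counts per 1000 plus 1, CD34, CD16/32 and Sca-1 differed from Early Ery progenitor A by 0.631, 0.678 and 0.654. All of these were over the 0.5 required there. With the cell group as block, CD34 differed from that class by 0.129.

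**Figure D2:**
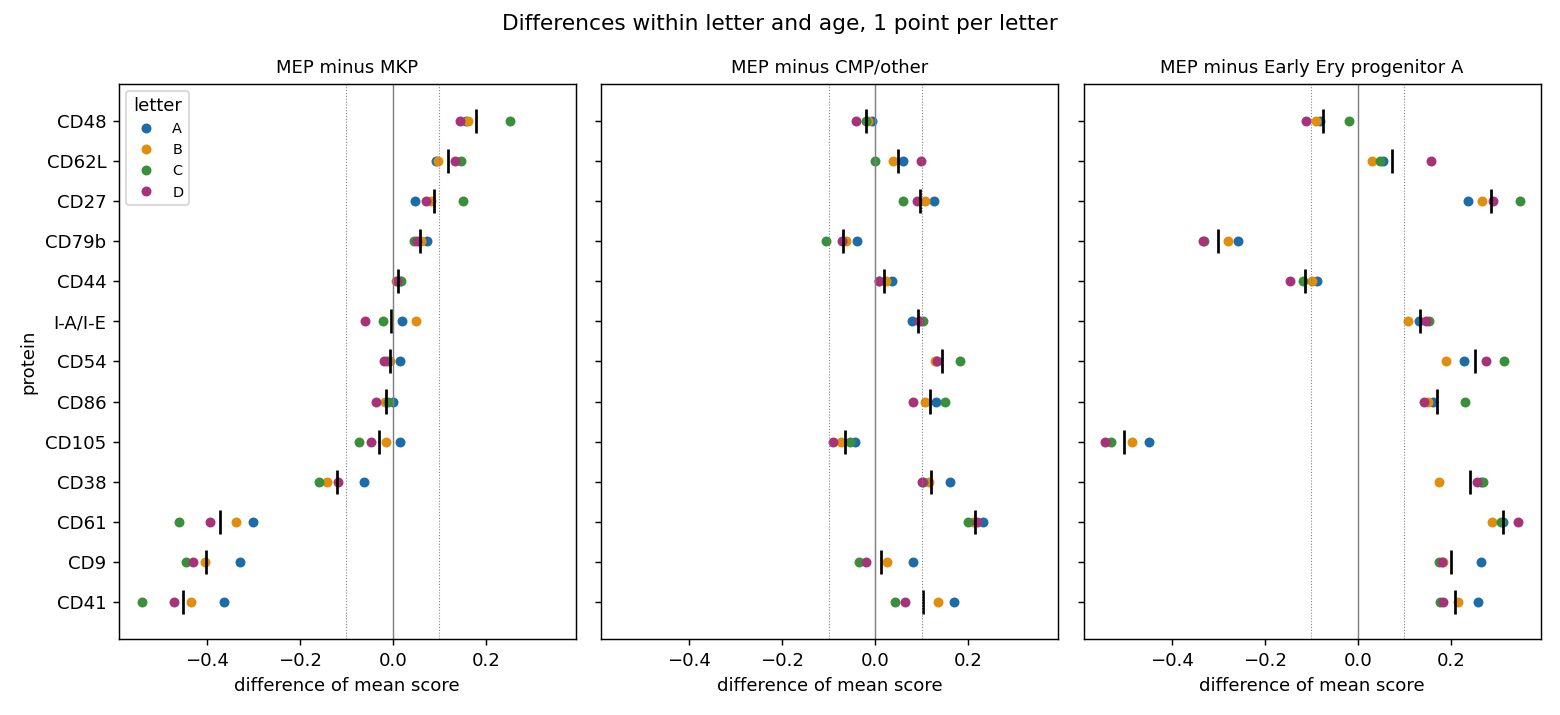
Difference of mean score, MEP minus the named class (x axis, score units), for the 13 proteins called in at least 1 of the 3 class comparisons (y axis). Each point is a letter, the bar is the mean over 4 letters and the dotted lines mark a size of 0.1. CD41, CD9 and CD61 are lower in MEPs than in MkPs, while CD61 and CD41 are higher in MEPs than in the other classes.

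The 13 proteins were chosen by that call, so their number is no support. Called in opposite directions were 4 of the 35 proteins. MEPs had more CD41, CD61 and CD38 than CMP/other and Early Ery progenitor A, and less than MkPs. CD9 was higher than in Early Ery progenitor A and lower than in MkPs, and was not called against CMP/other.

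The gates that the study's methods set on the protein scores were applied to MEPs. A myeloid progenitor (MyPro) was gated as Sca-1 under 0.71 and CD117 over 1, and an MkP within it as CD150 over 0.45 and CD41 over 0.6. The MyPro gate held 85.3% (95% interval 82.0 to 88.2) of MEPs. The MkP gates held 6.39% (95% interval 4.47 to 8.82) of MEPs and 56.7% (95% interval 53.9 to 59.5) of MkPs. In CMP/other and Early Ery progenitor A they held 0.971% and 0.176%. By these gates most MEPs were CD150+CD41-, namely 63.0% (95% interval 58.7 to 67.1), and 10.7% were CD150-CD41-. All 34 MEPs in the MkP gates carried the authors' own protein-based MkP annotation, 28 as CD48+ and 6 as CD48-. That annotation was set by these same thresholds, so the match shows only that the gates were rebuilt alike. The gates depend on depth, since with 300 tags per cell the MkP gates held 1.64% of young and 2.69% of old MEPs.

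Between old and young mice, MEPs differed in 7 proteins. CD86, CD38 and CD48 were lower in old MEPs (3 of 35, 8.57%), and I-A/I-E, CD61, CD62L and CD11c were higher (4 of 35, 11.4%). CD86 had young means of 0.536, 0.594, 0.582 and 0.553 in letters A to D and old means of 0.410, 0.348, 0.413 and 0.364. Every old letter was below every young letter, and the difference old minus young was -0.183 ± 0.0498. CD38 went from 0.828, 0.833, 0.819 and 0.808 in young to 0.662, 0.564, 0.719 and 0.691 in old MEPs. Old and young letters did not overlap here either, with a difference of -0.163 ± 0.0761.

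CD48 scored 1.45, 1.46, 1.46 and 1.44 in young MEPs of letters A to D and 1.34, 1.36, 1.35 and 1.25 in old MEPs. All old letters were lower, most so in D, and the mean difference was -0.124 ± 0.0415. With medians over cells it was -0.0928, under the size called. The share of MEPs over the CD48 gate of 1.1 was 99.7% (95% interval 98.2 to 100) in young and 88.4% (95% interval 83.5 to 92.3) in old mice. In young mice 1 MEP lay at or under that gate and in old mice 26. The old ones numbered 8, 7, 1 and 10 in letters A, B, C and D.

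CD61 scored 0.363, 0.380, 0.449 and 0.434 in young and 0.619, 0.554, 0.559 and 0.592 in old MEPs, higher in the old, again with no overlap of letters, a difference of 0.174 ± 0.0604. Its partner CD41 differed by 0.0887 ± 0.0906, higher in A, B and D and lower in C (-0.0386), and by 0.131 without C. The share over the CD41 gate of 0.6 was 10.1% (95% interval 6.94 to 14.0) in young and 21.4% (95% interval 16.2 to 27.4) in old MEPs. The old share was the higher in A (9.30% young, 30.2% old), in B (8.43% and 27.1%) and, by less, in D (6.59% and 10.4%). In C the order was turned, with 20.8% of young and 3.57% of old MEPs.

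CD62L went from 0.484, 0.533, 0.628 and 0.399 to 0.601, 0.581, 0.805 and 0.604, higher in old MEPs of each letter by 0.117 (A), 0.0484 (B), 0.177 (C) and 0.205 (D). The mean difference was 0.137 ± 0.0696, and old and young letters overlapped since letter C was high at both ages. CD11c, an integrin of dendritic cells, was low at both ages, with median counts of 1 and 3, and differed by 0.134 ± 0.0414.

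I-A/I-E had the largest mean age difference and the largest spread, 0.271 ± 0.205. Young MEPs scored 0.530, 0.632, 0.488 and 0.542 and old MEPs 1.03, 0.994, 0.673 and 0.574. The difference was 0.503 and 0.362 in letters A and B, and 0.186 and 0.0323 in C and D. CD150 also split by these pairs of letters, lower in old MEPs of A (-0.0929) and B (-0.0336) and higher in C (0.0868) and D (0.0603). Its mean of 0.00516 ± 0.0833 lies between these pairs. CD105 ran the other way, 0.0459 (A), 0.0126 (B), -0.128 (C) and -0.0722 (D). The labels do not say what sets A and B apart from C and D, and this was not tested.

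**Figure D3:**
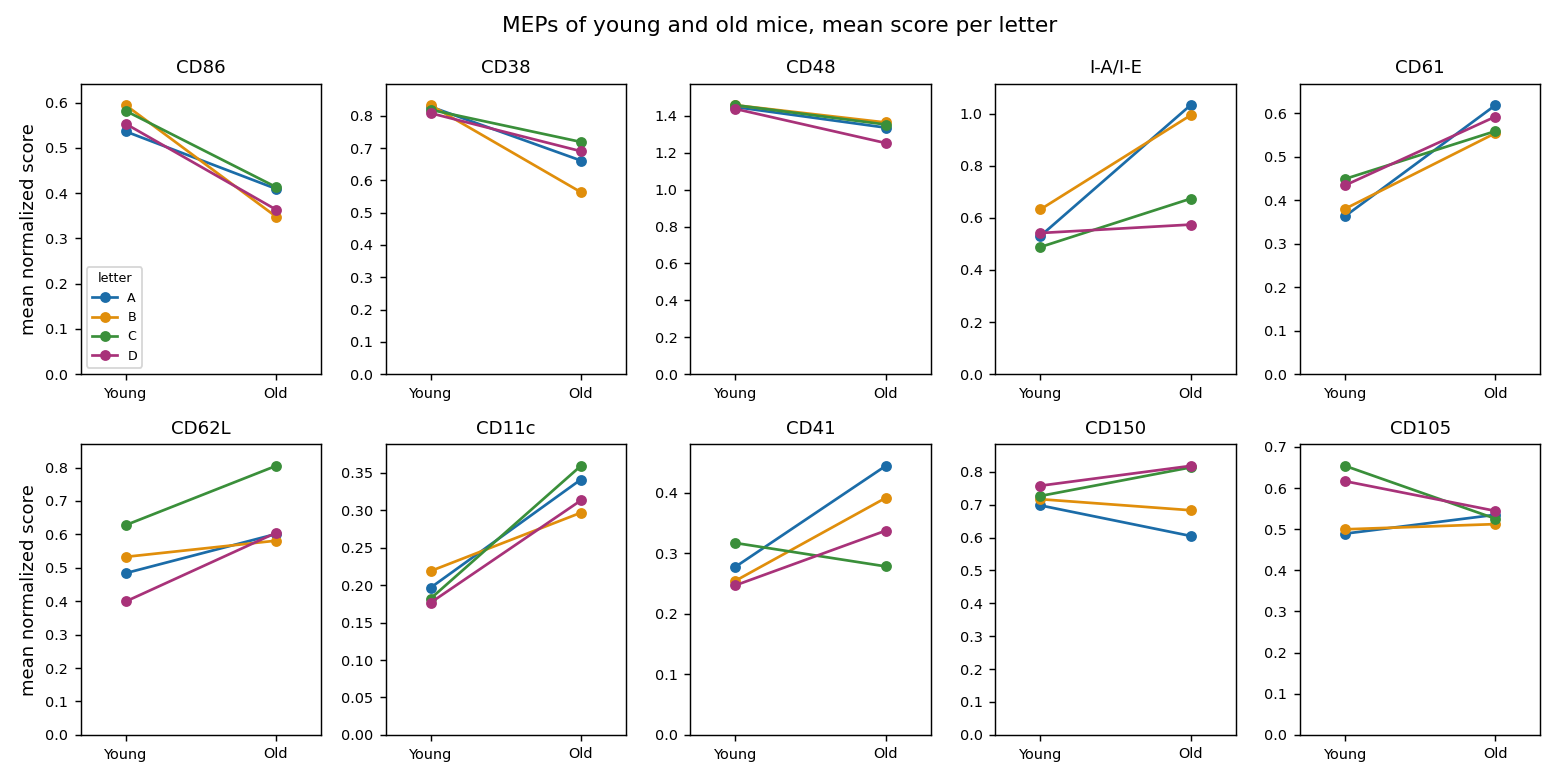
Mean normalized score of 10 proteins (y axis, from 0) in MEPs of young and old mice (x axis), with a line per letter. CD86, CD38 and CD48 go down and CD61, CD62L and CD11c go up in all 4 letters, while CD41, CD150 and CD105 take different directions between letters.

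By protein group, 1 of 6 megakaryocyte and platelet proteins was higher in old MEPs (CD61) and none lower, with a median difference of -0.00955 against -0.00260 over all 35. CD9 (-0.0435 ± 0.0324) and CD62P (P-selectin of platelet granules, -0.0965 ± 0.0304) were lower in all letters without reaching 0.1, though CD62P did without letter C (-0.110). CD27 differed by 0.0925 ± 0.107, lower in D and higher in the other letters. None of 5 erythroid and pre-erythroid proteins was called, and CD117 differed by 0.0268 ± 0.0169. Among 7 stem cell associated proteins CD38 alone was called, and among 8 myeloid proteins I-A/I-E and CD11c were higher and CD86 lower. None of 8 mature lineage proteins was called, with differences from -0.0481 to 0.0168.

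Some of these age differences were of like size in neighbouring classes and others were not. For CD86, the difference old minus young was -0.211 ± 0.0198 in MkPs, -0.190 ± 0.0449 in CMP/other and -0.176 ± 0.0191 in Early Ery progenitor A, against -0.183 in MEPs. These values are lower in old cells throughout and close to each other. CD38 was also lower with age in all letters of all 3 classes, but not by the same size. In MkPs the CD38 difference was -0.0819 ± 0.0275, under the size called, against -0.163 in MEPs. The gap between these was -0.0815 ± 0.0503, negative in 4 of 4 letters. The CD48 difference was larger in size in MkPs, at -0.276 ± 0.0307. The fall in MEPs was smaller than that by 0.152 ± 0.0708, in 4 of 4 letters. In CMP/other (-0.114 ± 0.0357) and Early Ery progenitor A (-0.0885 ± 0.0193) the CD48 difference was close to that of MEPs.

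CD61 was higher with age in MkPs by 0.209 ± 0.105, as in MEPs, and was not called in CMP/other (-0.00150 ± 0.0787) or Early Ery progenitor A (-0.00898 ± 0.0175). The MEP age difference exceeded theirs by 0.176 ± 0.0573 and 0.183 ± 0.0607, in 4 of 4 letters each. For CD62L, the age difference was -0.0139 ± 0.0272 in MkPs, 0.00596 ± 0.0586 in CMP/other and -0.0265 ± 0.0135 in Early Ery progenitor A, against 0.137 in MEPs. MEPs exceeded the 3 classes by 0.151 ± 0.0633, 0.131 ± 0.0406 and 0.164 ± 0.0614, positive in every letter. These are differences of differences in 1 sample and carry no test.

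CD150 went up with age in MkPs in all letters (0.128 ± 0.0376) and down in Early Ery progenitor A in all letters (-0.114 ± 0.0815), with MEPs between them at 0.00516. I-A/I-E showed the same pairing of letters in each class, with higher values in A and B. In CMP/other, for example, the age difference was 0.378 and 0.368 in A and B, and 0.0594 and 0.0351 in C and D. In MkPs it was 0.315 and 0.344 in A and B, but -0.0202 and -0.0318 in C and D. The I-A/I-E age difference of MEPs exceeded that of MkPs by 0.119 ± 0.0924, in 4 of 4 letters.

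**Figure D4:**
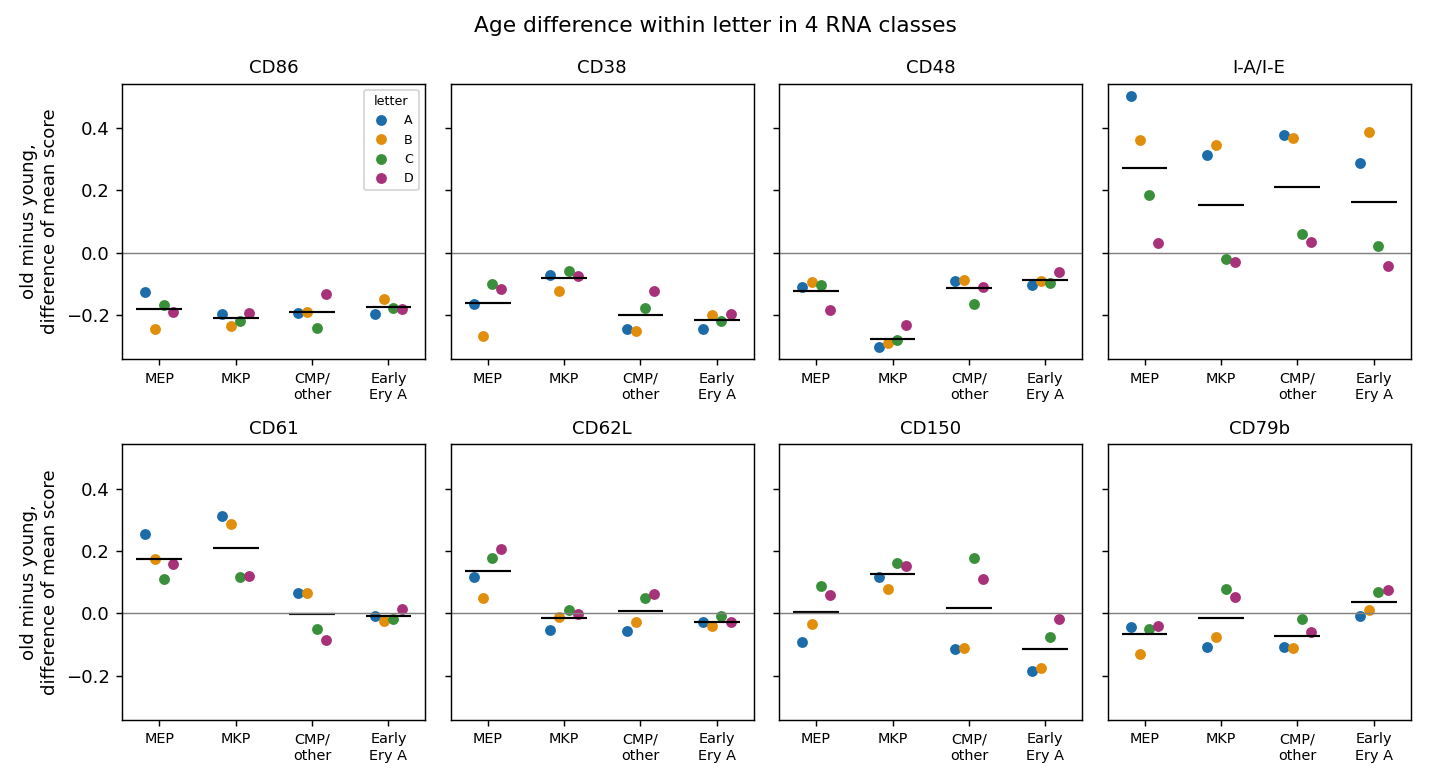
Difference of mean score, old minus young (y axis, score units), for 8 proteins in MEPs, MkPs (MKP), CMP/other and Early Ery progenitor A (x axis), with a point per letter and a line at the mean of 4 letters. CD86 is lower with age in all 4 classes, CD61 is higher in MEPs and MkPs, and CD62L is above 0 in all letters in MEPs alone among these classes.

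The deposited table calls each cell positive or negative for expression of Egfp, the switched reporter. Of 532 MEPs, 55 were Egfp-. The Egfp- share was 5.84% in young MEPs (18 of 308, exact 95% interval 3.50 to 9.08) and 16.5% in old MEPs (37 of 224, 11.9 to 22.0). Young letters A to D gave 3.49%, 1.2%, 6.25% and 12.1%. Old letters gave 17.5%, 17.6%, 7.14% and 18.8%. The share was higher in old MEPs in all 4 letters, by little in C, where 3 young and 2 old cells were Egfp-. Without letter D the young share was 3.23%. Over all annotated cells the Egfp- share was 2.95% in young and 10.6% in old mice, so the rise with age was not particular to MEPs. In old cells of letter C that share was 11.5%, above the 7.14% of MEPs.

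In old MkPs 46.4% of cells were Egfp-, in old CMP/other 7.49% and in old Early Ery progenitor A 6.82%. With letters pooled, the share of old MEPs was below that of MkPs and above those of the other 2 classes. The exact intervals did not overlap, but they cover counting error only and not the spread between letters. Old MkPs had the highest share in each letter. In letter D, however, CMP/other at 22.2% (8 of 36) was above MEPs at 18.8% (9 of 48). In C, MEPs (7.14%), Early Ery progenitor A (6.52%) and CMP/other (6.25%) were close. Pooled over letters, the young shares were 8% in MkPs, 4.67% in CMP/other and 1.69% in Early Ery progenitor A. Egfp- MEPs were not shallower, with a median of 24988 RNA UMIs against 22710 in Egfp+ MEPs. How far a missed transcript sets the call was not tested.

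**Figure D5:**
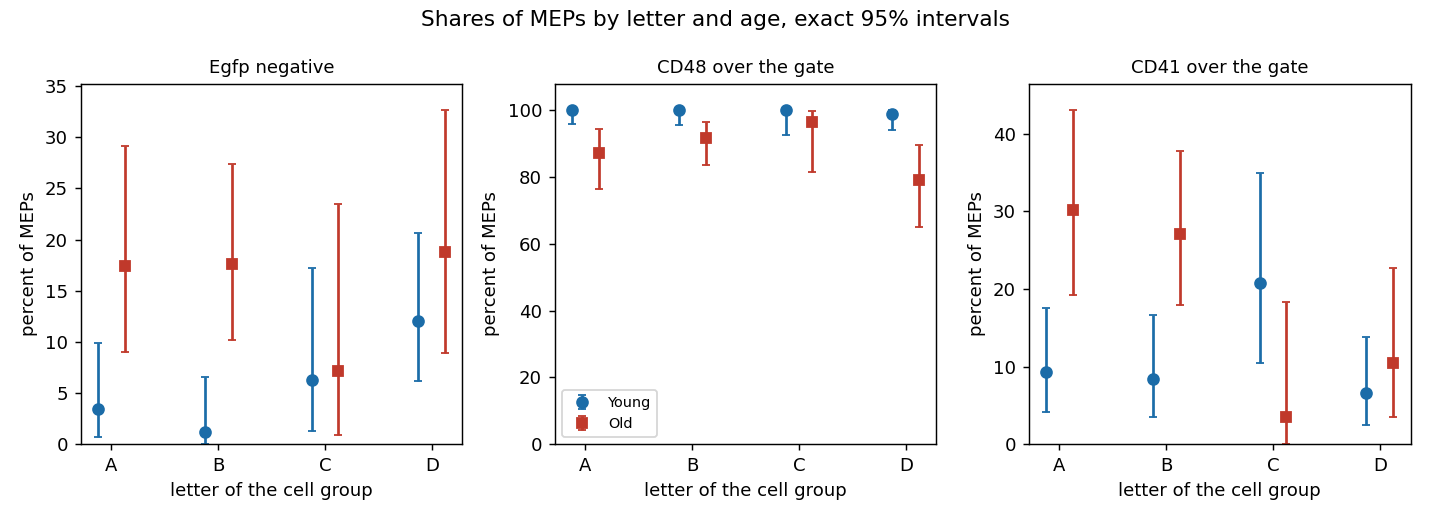
Percent of MEPs (y axis) that are Egfp negative, over the CD48 gate or over the CD41 gate, by letter (x axis) and age (circles young, squares old), with exact 95% Clopper-Pearson intervals for counting error. The Egfp negative share is higher and the share over the CD48 gate lower in old MEPs of each letter, while the CD41 share is not ordered alike in all letters.

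Egfp+ and Egfp- MEPs could be compared in old cells of letters A and B and in young cells of letter D, the sets with at least 10 of each. CD48 was higher in Egfp+ MEPs, with 1.38 (A), 1.39 (B) and 1.45 (D) against 1.11 (A), 1.24 (B) and 1.36 (D) in Egfp- MEPs. The difference of 0.171 ± 0.0962 (SD over 3 letters) was positive in each, and CD48 was the 1 protein of 35 (2.86%) called higher. Lower in Egfp+ MEPs were CD61 (-0.229 ± 0.167), the stem cell antigen Sca-1 (-0.123 ± 0.115) and CD41 (-0.112 ± 0.0645), which makes 3 of 35 (8.57%). Letter A decided the sizes of CD61 and Sca-1, which were -0.420 and -0.254 there. Without A the means of these were -0.134 and -0.0571. CD150 differed by -0.0781 ± 0.114, CD9 by 0.0512 ± 0.0398 and CD105 by -0.0427 ± 0.123, none of them called. Without B, CD41 differed by -0.0831, and without D, CD105 by -0.113 and CD86 by -0.149, so the calls of CD41 and Sca-1 depended on the letters used. After thinning, CD41 differed by -0.0992 and Sca-1 by -0.0669, and with medians over cells CD48 differed by 0.0982 and Sca-1 by -0.0838, all under the size called. Age and letter cannot be told apart in this comparison, since each letter entered with a single age.

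MEPs at or under the CD48 gate were looked at after their values were seen, so what follows is description. In old mice 13 of 26 such MEPs were Egfp- (50%, exact 95% interval 29.9 to 70.1), against 24 of 198 (12.1%) over the gate. Their median CD61 score was 1.14, against 0.542 over the gate. For CD41 the medians were 0.615 and 0.372, for CD150 0.899 and 0.723, and for Sca-1 0.696 and 0.514. CD9 was not higher in them, at 0.880 against 0.955. Depth was close, with medians of 959.5 and 949.5 ADT counts. With MEPs over the gate alone, the age difference was 0.124 for CD61, 0.147 for CD62L and -0.158 for CD38. That of CD48 itself was then -0.0715. The gate removed MEPs by their CD48 score, so this value is no check on the CD48 age difference.

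Within single sets of a letter and an age, MEPs varied along a few pairs of proteins. The values are Pearson correlations over the 28 to 91 cells of a set, given without a test, and proteins of 1 cell share its geometric mean and depth. CD41 and CD61, which form a dimer, had a median correlation of 0.567 (range 0.436 to 0.760) over 8 sets (median Spearman 0.541). CD38 and CD86, both lower with age, had 0.539 (range 0.423 to 0.650). CD105 went with CD44, another protein that was higher in Early Ery progenitor A, at 0.411 (range 0.0784 to 0.602). The median Spearman value of this pair was 0.397 (range -0.0302 to 0.542). CD150 and CD48 had a negative Pearson correlation in all 8 sets, at -0.428 (range -0.622 to -0.178). By Spearman the median was -0.324 (range -0.445 to 0.0124), so by rank not every set was inverse. CD105 and CD41, which separate the erythroid and megakaryocyte neighbours, had a median near 0, 0.0368 (range -0.137 to 0.295). CD61 and CD9 were near 0 as well, 0.0364 (range -0.0814 to 0.181), although both were low in MEPs against MkPs.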

How the data were processed

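The submitters' processing notes name Cell Ranger and mm10. The authors deposited ADT counts of 35 antibodies in 22790 cells and a table of scores and annotations for 22602 of them. Their normalized score is a centred log-ratio computed within each cell, and it could be rebuilt from the deposited counts to within 1e-09. The deposited table also gives, per cell, the percent of mitochondrial RNA, RNA UMIs, age, RNA class and Egfp call. Its rule for the Egfp call and the treatment of doublets are not given in the sources used here, and all annotated cells were kept. The authors removed cells with few genes, and the fewest genes in an MEP were 2823.

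From these, mean scores were compared within letter (and age), using sets with at least 10 cells of each kind, and averaged over ages and then letters. Shares carry exact Clopper-Pearson 95% intervals. Libraries could not be mapped to cells, so no test was run over them and p-values are absent. Named in each comparison were CD117, CD9, CD150, CD41, CD48, CD105, CD34, CD16/32, CD135, Sca-1, CD38, CD44, CD61, TER-119 and the 10 called proteins of largest difference, others by list. CD27, CD62P and CD79b where not called, F4/80, CD86 without letter D, and lineage proteins were named after their values were seen. The members, protein lists and comparisons were chosen with earlier results of these data known. Alternatives were leaving out a letter, log2 of counts per 1000 plus 1, thinning to 300 counts, medians, no blocks, cell groups as blocks, at least 20 cells, depth limits, a size of 0.2 and other denominators. Python 3.11.15, numpy 2.4.6, pandas 2.3.3, scipy 1.17.1 and matplotlib 3.10.9 were used, with random seed 0, and the procedure was tested on simulated data.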

Additional observations from a re-analysis of the deposited data

Results flagged for a closer look

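In 5 cases the value of a single letter stood apart from the other 3 by more than the limit of Dixon's test. Chance alone sets about 1 in 20 groups of 4 apart, and 68 were looked at. Letter C had the highest difference between MEPs and MkPs in CD48, 0.252, and the highest between MEPs and CMP/other in CD54, 0.182. In CD117, letter D gave 0.0307 for MEPs against CMP/other, with the other letters from 0.00873 to 0.0124. Against Early Ery progenitor A, letter A was highest in CD9 at 0.264 and letter B lowest in CD38 at 0.174. All 5 have the direction of the other letters. The CD62L age difference was positive in MEPs and negative in Early Ery progenitor A in all 4 letters, a gap of 0.164 that was not tested.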

How the results depend on the processing

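No named protein that was called changed direction under any alternative run. Of 1078 recomputed differences of named proteins, 1017 moved by less than the SD over letters or kept their call, and 61 moved by more, 23 of them with cells thinned to 300 counts and 15 on the log2 scale. For MEPs against MkPs, 2 proteins were called higher. It was 4 on the log2 scale and 4 after thinning, 1 without cells over the 95th percentile of depth, 1 with no blocks and 0 at a size of 0.2. For MEPs against CMP/other, thinning gave 2 higher and 1 lower, and a size of 0.2 gave 1 higher. Against Early Ery progenitor A, 14 were higher on the log2 scale. For old against young MEPs, a size of 0.2 left 1 higher and 0 lower, and with medians over cells CD48 was no longer called. With MEPs over the CD48 gate alone (chosen after seeing the data) CD48 was not called either. That gate removed cells by their CD48 score, so it is no check on the CD48 difference. For Egfp+ against Egfp- MEPs, leaving out a letter gave 1 to 2 higher and 2 to 7 lower, the 7 without letter D. Medians over cells gave 0 higher, and a size of 0.2 gave 0 higher and 1 lower. After thinning, which dropped 4 MEPs, the MkP gates held 1.64% of young and 2.69% of old MEPs, and the MyPro gate held 92.8% and 89.2%. Without stem, multipotent and lymphoid classes in the denominator, MEPs were 2.78% of young and 2.66% of old cells. Leaving out a letter gave an Egfp- share of young MEPs from 3.23 to 7.56%, also chosen after seeing the data. Without blocks and without the deepest cells, Sca-1 between Egfp+ and Egfp- MEPs was -0.0977 and -0.0971. CD41 against CMP/other was 0.0971 without the deepest cells. On the log2 scale, where 0.5 was required, CD38 was -0.425 against MkPs and 0.460 against CMP/other, and CD44 was -0.390 against Early Ery progenitor A. The cause of these shifts was not tested. Cell group names could not be blocks for age, since each holds 1 age, and the Egfp comparison could not be made at 20 cells of each kind or within the middle range of RNA UMIs. By the libraries' replicate numbers no paired analysis was possible because cells could not be mapped to libraries, and letters served as blocks instead. With a median of 942.5 tags per MEP, CD41, CD11c and TER-119 had median counts of 0 to 3, so small differences in them were not detectable at this depth.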
